A study of Rattus norvegicus with 2 samples.

Results

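The 10 core genes of the circadian clock (Per1, Per2, Per3, Arntl, Clock, Cry1, Cry2, Nr1d1, Nr1d2 and Dbp) were examined in the rat adrenal medulla during hypoglycemia. They were taken by gene name, through every probe set that the array annotation gives to 1 of these genes alone. All 10 were found, with 18 probe sets, among 14217 genes with 20826 such probe sets. Arntl is written Bmal1 in newer annotation. The study compared Sprague-Dawley rats with antecedent recurrent hypoglycemia (RH) with rats without it. The rats of the 2RH30 group were injected with insulin, 2 IU/kg, 2 times per day for 3 days, and those of the 2RS30 group were injected with saline on the same schedule, both with only a morning injection on the last of these days. All were adult males, were fasted overnight and then underwent a hyperinsulinemic-hypoglycemic clamp on day 4, at 40 to 50 mg/dL glucose per the labels, and all were killed 30 min after the target was reached. RNA of 6 rats per group was combined and read on 1 Affymetrix Rat Genome 230 2.0 array per group, so each group is 1 sample, no p-value is given, and every difference is one between these 2 pools.

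The clock is a feedback loop of transcription. CLOCK and its partner ARNTL bind E-boxes and switch on the Per and Cry genes, whose proteins return to the nucleus and block that pair. In an interlocked loop, the REV-ERB proteins encoded by Nr1d1 and Nr1d2 compete with ROR activators at ROR elements (RORE), among them those of Arntl, and DBP drives genes through D-boxes. The adrenal gland holds a clock of its own, and Per1 in particular is also known as a rapid target of glucocorticoids and of cAMP signaling. The injections were made in the morning and early afternoon in both groups, and food was withheld for hours after each of them in both. The sources used here do not state at which hour of the day the rats were killed.

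As deposited, 7 of the 10 clock genes had nearly equal values in both pools in their brightest probe sets. Dbp and Cry2 exceeded their 2RS30 values by 2-fold or more in 2RH30 (a difference of 1 or more on the log2 scale), Nr1d1 was 1.60-fold higher, and the other 7 genes differed by -0.08 to 0.11. Read from the probe set with the highest mean level, 2 of 10 clock genes were thus 2-fold or more higher in 2RH30, against 11.5% of all genes, and 0 were 2-fold or more lower, against 9.62% of all genes. A count of 2 in 10 is near that background and is no result about the clock genes as a set. The median difference of the 10 genes was 0.05, that of all 14217 genes 0.11.

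Because the difference depended on the level of a probe set, each value is given in a second form too. The median difference over probe sets was -0.38 in the dimmest of 20 level bins and 0.49 in the brightest, and subtracting this trend, fitted by lowess, gave the level-adjusted difference. In that form 0 of 10 clock genes were 2-fold or more higher (8.95% of all genes) and 0 were lower (9.31% of all genes), and their median was -0.24, against 0.02 for all genes. The values of the arrays were also spread differently, with an SD over probe sets of 1.57 in 2RH30 and 1.28 in 2RS30, and the hybridization controls had mean differences of -3.25 for bioB (6 probe sets), -2.63 for bioC, -1.49 for bioD and -0.41 for cre (4 probe sets each). The part of these array properties in the values of single genes was not tested. The only available measure of error is the scatter between probe sets of 1 gene. The SD of their differences within a gene was 0.63 for 550 genes with a mean level of 7 or more and 0.86 for 1989 genes under it, which includes no spread between animals or pools.

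**Figure D1:**
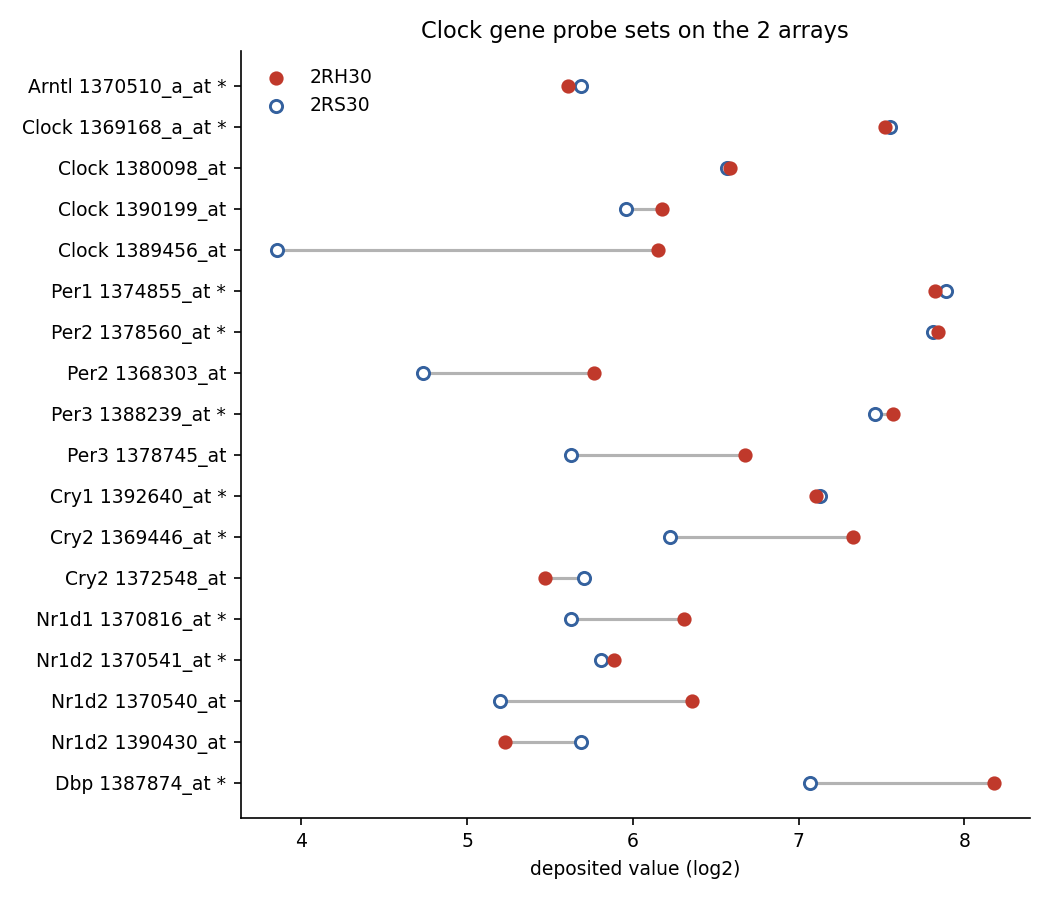
Deposited log2 value (horizontal axis) of each clock gene probe set (vertical axis) in 2RH30 (filled) and 2RS30 (open), with a grey line joining the 2 arrays. A star marks the brightest probe set of a gene. Most starred pairs nearly coincide, whereas Dbp reads 8.18 in 2RH30 and 7.07 in 2RS30, and Cry2 reads 7.33 in 2RH30 and 6.22 in 2RS30.

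Promoter sequences from RefSeq (GRCr8 assembly, 250 bases before to 50 after an annotated start) were matched by gene number for 9 of the 10 genes, 11 promoters in all, since Clock and Nr1d1 have 2 starts each. They were searched on both strands for the E-box CACGTG, the variant E'-box CACGTT, the D-box TTATGNAA, the core TAGGTCA of a RORE and the cAMP response element TGACGTCA, none of which overlapped another where found. Of all 33469 rat promoters of this length, 6.42% held the E-box, 4.83% the E'-box, 3.66% the D-box, 2.63% the RORE core and 1.83% the cAMP response element. Among the clock genes, the E-box was found for 1 gene, the E'-box for 3, the D-box for 1, the RORE core for 1 and the cAMP response element for 0. A match is a description of the letters and not evidence of binding. The lack of a match holds for this window only, since sequence outside it was not searched.

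**Figure D2:**
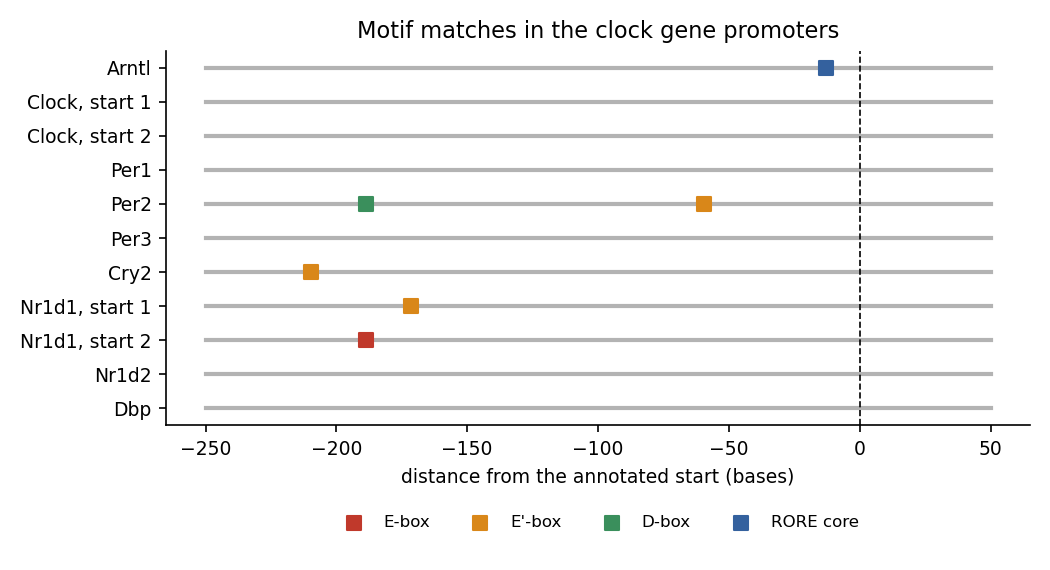
Positions of the motif matches (coloured squares) in the 11 promoters of 9 clock genes (vertical axis), by distance from the annotated start in bases (horizontal axis, start at 0). Matches lie in the promoters of Arntl, Per2, Cry2 and Nr1d1, and the Per2 promoter holds 2 of them.

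The activator genes had nearly equal values in both pools, apart from 1 probe set of Clock. Arntl, whose protein is the partner of CLOCK, read 5.61 in 2RH30 and 5.69 in 2RS30, a difference of -0.08 (level-adjusted -0.19). Clock, a bHLH-PAS factor, read 7.52 in 2RH30 and 7.55 in 2RS30 in its brightest probe set (1369168_a_at), a difference of -0.03 (level-adjusted -0.43). In a further pair of its 4 probe sets the differences were 0.02 and 0.22 (1380098_at and 1390199_at). The remaining one, 1389456_at, read 6.15 in 2RH30 and 3.85 in 2RS30, a difference of 2.30 (level-adjusted 2.41). This was the largest difference of the 18 probe sets, and 99.3% of the 1552 probe sets in its level bin had an equal or lower one. Its 2RS30 value lay at percentile 7.97 of that array, whereas its 2RH30 value lay at percentile 65.7. The Arntl promoter is shown because REV-ERB and ROR proteins act on this gene, and its RORE core, in capitals, lies at positions -16 to -10 from the start, which is position 0.
Arntl promoter, chr1:176766078-176766377, plus strand: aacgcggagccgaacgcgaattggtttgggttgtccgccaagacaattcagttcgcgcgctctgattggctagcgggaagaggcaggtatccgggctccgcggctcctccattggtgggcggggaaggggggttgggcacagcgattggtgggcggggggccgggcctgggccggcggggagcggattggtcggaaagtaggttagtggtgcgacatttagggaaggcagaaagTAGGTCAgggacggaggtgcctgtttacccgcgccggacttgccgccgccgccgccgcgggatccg

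Among the repressor genes, the brightest probe sets of Per1, Per2, Per3 and Cry1 differed by -0.06 to 0.11. Per1, the family member that responds fastest to hormones and cAMP, read 7.82 in 2RH30 and 7.89 in 2RS30 in its single probe set, a difference of -0.06 (level-adjusted -0.50). In its level bin 20.2% of 1552 probe sets had a difference that low or lower. Cry1, a strong repressor of the CLOCK and ARNTL pair, read 7.11 in 2RH30 and 7.13 in 2RS30, a difference of -0.02 (level-adjusted -0.36). Both single probe sets thus differed less than the median of their level bins, which was 0.39 for Per1 and 0.32 for Cry1.

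Per2 and Per3 had 2 probe sets each, which disagreed in the same manner. Per2 read 7.84 in 2RH30 and 7.81 in 2RS30 in the brighter one (1378560_at), a difference of 0.03 (level-adjusted -0.40), but 5.77 in 2RH30 and 4.73 in 2RS30 in the other (1368303_at), a difference of 1.03 (level-adjusted 1.05). Per3, which is dispensable for rhythms in mice, read 7.57 in 2RH30 and 7.46 in 2RS30 in the brighter one (1388239_at), a difference of 0.11 (level-adjusted -0.29). The other Per3 probe set (1378745_at) read 6.67 in 2RH30 and 5.63 in 2RS30, a difference of 1.05 (level-adjusted 0.86). For both genes the dimmer probe set passed 2-fold and the brighter one lay near 0. The Per2 promoter is shown because it held both a D-box, the motif of DBP, and an E'-box, the motif of the CLOCK and ARNTL pair. In capitals, the D-box lies at positions -192 to -185 and the E'-box at -62 to -57.
Per2 promoter, chr9:99496944-99497243, minus strand: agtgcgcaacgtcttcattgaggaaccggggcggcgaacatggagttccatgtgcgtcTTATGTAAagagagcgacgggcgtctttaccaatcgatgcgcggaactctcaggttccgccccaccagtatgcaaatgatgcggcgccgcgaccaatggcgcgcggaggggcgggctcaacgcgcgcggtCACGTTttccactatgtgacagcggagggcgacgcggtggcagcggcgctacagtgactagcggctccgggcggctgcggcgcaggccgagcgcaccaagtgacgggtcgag

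Cry2, the second cryptochrome, was the repressor gene with a 2-fold higher value in its brightest probe set. This probe set (1369446_at) read 7.33 in 2RH30 and 6.22 in 2RS30, a difference of 1.11 (level-adjusted 0.82), and 88.2% of the probe sets in its level bin had an equal or lower difference. The other probe set (1372548_at) went the opposite way, with 5.47 in 2RH30 and 5.71 in 2RS30, a difference of -0.23 (level-adjusted -0.33). The deposited difference of the brighter one exceeded the SD between probe sets at this level, 0.86, and the level-adjusted one did not. The Cry2 promoter is shown because the gene was 1 of the 2 past 2-fold. Its E'-box, read on the reverse strand and in capitals, lies at positions -212 to -207.
Cry2 promoter, chr3:98860388-98860687, minus strand: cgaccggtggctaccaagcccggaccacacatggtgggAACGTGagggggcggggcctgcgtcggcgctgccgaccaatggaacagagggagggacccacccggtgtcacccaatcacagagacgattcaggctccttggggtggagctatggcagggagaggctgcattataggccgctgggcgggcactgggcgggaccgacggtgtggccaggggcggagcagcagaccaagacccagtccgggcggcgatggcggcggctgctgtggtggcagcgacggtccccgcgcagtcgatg

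The REV-ERB genes gave mixed values. Nr1d1, which encodes the heme-binding repressor REV-ERB alpha, read 6.31 in 2RH30 and 5.63 in 2RS30 in its single probe set, a difference of 0.68 (level-adjusted 0.51), which is under the SD between probe sets of 0.86. Nr1d2, which encodes REV-ERB beta, had 3 probe sets. The brightest (1370541_at) read 5.89 in 2RH30 and 5.81 in 2RS30, a difference of 0.08 (level-adjusted -0.07). The next (1370540_at) read 6.36 in 2RH30 and 5.20 in 2RS30, a difference of 1.16 (level-adjusted 1.02). The third (1390430_at) read 5.23 in 2RH30 and 5.69 in 2RS30, a difference of -0.46 (level-adjusted -0.51). The 3 probe sets of Nr1d2 therefore gave a higher, a nearly equal and a lower value in 2RH30. The 2 Nr1d1 promoters are shown because they held the single E-box found among the clock genes, at -191 to -186 from the second start, and an E'-box on the reverse strand at -174 to -169 from the first start, both in capitals.
Nr1d1 promoter at the first start, chr10:84231763-84232062, minus strand: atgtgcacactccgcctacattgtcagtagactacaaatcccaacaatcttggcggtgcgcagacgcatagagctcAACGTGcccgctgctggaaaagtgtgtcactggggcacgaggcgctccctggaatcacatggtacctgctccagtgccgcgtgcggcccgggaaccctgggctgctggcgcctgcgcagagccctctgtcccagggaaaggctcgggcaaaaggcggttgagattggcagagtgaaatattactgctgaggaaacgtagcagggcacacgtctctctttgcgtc
Nr1d1 promoter at the second start, chr10:84229405-84229704, minus strand: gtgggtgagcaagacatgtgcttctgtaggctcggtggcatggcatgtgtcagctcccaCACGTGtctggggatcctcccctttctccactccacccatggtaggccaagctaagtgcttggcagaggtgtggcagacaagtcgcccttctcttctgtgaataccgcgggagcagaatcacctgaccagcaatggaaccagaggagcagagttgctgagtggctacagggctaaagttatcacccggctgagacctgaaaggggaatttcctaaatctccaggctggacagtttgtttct

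Dbp, the PAR bZIP activator that is a direct target of the CLOCK and ARNTL pair, was with Cry2 the other gene past 2-fold, at an almost equal deposited difference and a lower level-adjusted one (0.70 for Dbp, 0.82 for Cry2). It read 8.18 in 2RH30 and 7.07 in 2RS30 in its single probe set, a difference of 1.11 or 2.16-fold. The deposited difference exceeded the SD between probe sets at its level, 0.63. The level-adjusted one, 0.70, was only just above the SD of level-adjusted differences, 0.64. With 1 probe set Dbp has no scatter of its own to read, and this SD includes no spread between animals or pools. Among the probe sets of its level bin, 15.3% reached 2-fold in this direction. Dbp, the single probe set of Per1 and the brightest ones of Per2, Per3 and Clock fell in the same level bin, and of these Dbp was 2-fold higher and the others lay between -0.06 and 0.11. The Dbp promoter is shown because the gene was 1 of the 2 past 2-fold. None of the motifs searched was found within this window, so the sequence has no capitals, and sequence outside the window was not searched.
Dbp promoter, chr1:105312006-105312305, plus strand: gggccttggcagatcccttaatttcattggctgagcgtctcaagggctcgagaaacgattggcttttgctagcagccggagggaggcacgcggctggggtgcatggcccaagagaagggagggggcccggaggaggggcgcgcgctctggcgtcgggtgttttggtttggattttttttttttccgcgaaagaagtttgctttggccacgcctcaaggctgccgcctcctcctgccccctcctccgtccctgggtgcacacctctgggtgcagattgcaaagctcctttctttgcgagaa

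**Figure D3:**
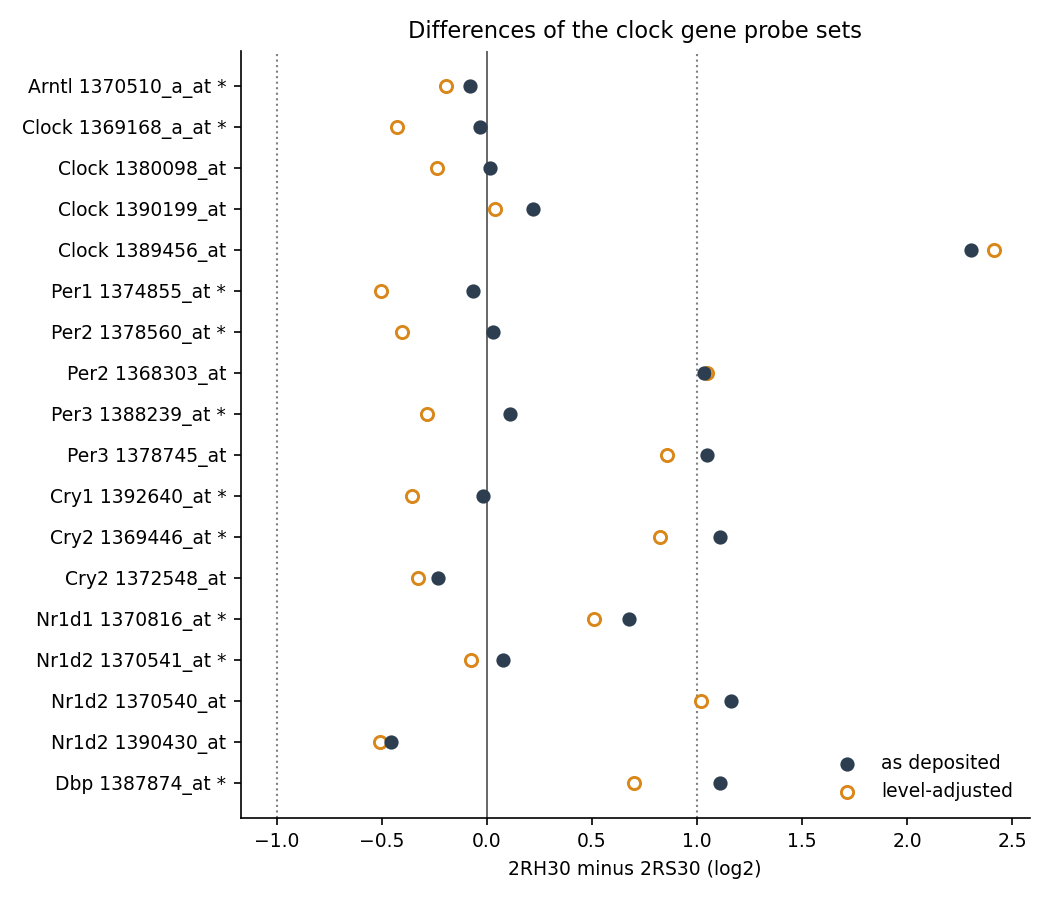
Difference of 2RH30 minus 2RS30 on the log2 scale (horizontal axis) for each clock gene probe set (vertical axis). Filled points are the deposited and open points the level-adjusted differences. Dotted lines mark 2-fold and stars the brightest probe set of a gene. As deposited 6 probe sets lie beyond 2-fold on the higher side, level-adjusted 3 do, and 0 lie beyond it on the lower side.

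The clock genes were also counted over probe sets. Of the 18, 6 exceeded their 2RS30 value by 2-fold or more in 2RH30, against 10.4% of all 31042 probe sets, and 0 were 2-fold or more lower, against 12.1%. The 6 belonged to 6 different genes (Clock, Per2, Per3, Cry2, Nr1d2 and Dbp). In the level bins that hold clock gene probe sets, 10.8% to 15.3% of probe sets reached 2-fold on the higher side. Level-adjusted, 3 of 18 (Clock, Per2 and Nr1d2) were 2-fold or more higher, against 8.99% of all probe sets, and 0 were lower, against 10.2%. All 3 of these lay under the array median in 2RS30, at percentiles 7.97, 27.2 and 41.3, and above it in 2RH30, the array where they were high. Of the 18 probe sets 0 lay under the median of both arrays, against 12596 of all 31042, so the share over all probe sets is not matched for level. Probe sets of 1 gene share their source RNA and are not replicates of the condition. These counts are a description only.

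In no clock gene did a second probe set pass 2-fold in the same direction. All 5 clock genes with several probe sets had 1 that was 2-fold or more higher, and 0 had 2. Of all 2539 genes with 2 or more probe sets that were not dim, 36.4% had at least 1 such high probe set. Of those 924 genes, 15.9% had 2 or more. The clock gene counts are a description only, since 3 of their 5 high probe sets were above the array median only in 2RH30, where they were high. The differences within a gene spanned 2.33 in Clock, 1.62 in Nr1d2, 1.34 in Cry2, 1.001 in Per2 and 0.94 in Per3. Averaged over probe sets, the differences were 0.63 for Clock, 0.58 for Per3, 0.53 for Per2, 0.44 for Cry2 and 0.26 for Nr1d2, all below 2-fold. Where along the transcripts these probe sets bind was not analysed here.

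**Figure D4:**
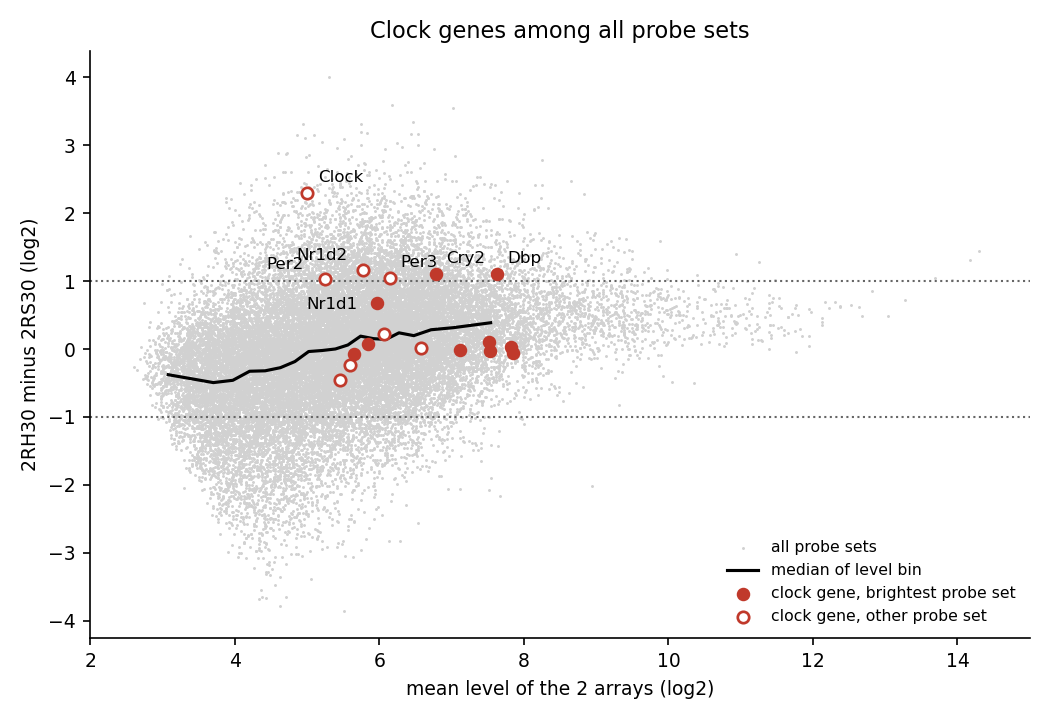
Difference of 2RH30 minus 2RS30 on the log2 scale (vertical axis), by mean log2 level over both arrays (horizontal axis), for all probe sets (grey), with the median of each level bin but the brightest (black line) and the clock gene probe sets (red, filled for the brightest of a gene). Dotted lines mark 2-fold. Dbp and Cry2 are the filled points above 2-fold, and the filled points of Per1, Per2, Per3, Cry1 and Clock lie together near 0, below the line.

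Other genes of the clock pathway were read in 7 lists, 46 of whose 52 genes were measured. Of the 46, 10 were 2-fold or more higher in 2RH30 and 4 were lower, with a median difference of 0.52 (0.11 for all genes). Level-adjusted, 7 were higher (8.95% of all genes) and 2 lower (9.31%), with a median of 0.22 (0.02 for all genes). A gene is called dim where it lay under the array median on both arrays. Of the named genes that are not dim, Btrc, Pdk4, Tsc22d3, Crtc1 and Crtc3 were above the median only in 2RH30, and Timeless, Bhlhe41, Wee1, Tfrc and Crtc2 only in 2RS30. As deposited, 10 of 46 on the higher side is a larger share than the 11.5% of all genes. On the lower side, 4 of 46 is similar to the 9.62% of all genes. These lists were chosen with earlier results of these data known. Of the 46 genes 8 were dim, against 4348 of all 14217, so the background is not matched for level. The counts are a description only and no result about the lists.

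Activators and repressors beside the core loop had differences in both directions. Rora, a ROR activator, differed by 0.12 (level-adjusted -0.24), and Npas2 and Rorb were dim. The PAR bZIP partners of DBP differed by 0.31 for Tef (level-adjusted 0.11) and by -0.06 for Hlf (level-adjusted -0.28), and Nfil3, their repressor at D-boxes, by 0.78 (level-adjusted 0.30). Of 4 measured genes in the list of further E-box repressors, 2 were 2-fold or more lower (9.62% of all genes) and 0 higher (11.5%). Both lower ones were under the array median in 2RH30. Timeless, kept in this list as the mammalian relative of a fly clock gene, acts mainly in DNA replication. It read 3.91 in 2RH30 and 5.83 in 2RS30, a difference of -1.91 (level-adjusted -1.75). Bhlhe41, which encodes DEC2, read 4.15 in 2RH30 and 5.60 in 2RS30, a difference of -1.45 (level-adjusted -1.29). Its paralog Bhlhe40 (DEC1) read 7.80 in 2RH30 and 7.06 in 2RS30, a difference of 0.74 (level-adjusted 0.36). Each of these 3 genes has 1 probe set.

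Genes whose products modify clock proteins included 5 of 11 that were 2-fold or more higher in 2RH30 (11.5% of all genes) and 0 that were lower (9.62%). Level-adjusted, 3 were higher (8.95% of all genes) and 0 lower (9.31%). Gsk3b, a kinase of REV-ERB alpha and CRY2, read 7.99 in 2RH30 and 5.86 in 2RS30, a difference of 2.13 (level-adjusted 1.83). Csnk2b, the regulatory subunit of casein kinase 2, read 7.91 in 2RH30 and 6.08 in 2RS30, a difference of 1.83 (level-adjusted 1.51). Its catalytic partner Csnk2a1 differed by 1.11 (level-adjusted 0.83), with the other 4 probe sets between 0.13 and 1.74. Csnk1d, a kinase that marks PER proteins, differed by 1.18 (level-adjusted 0.77), with the other 4 probe sets between -0.39 and 0.82, and its relative Csnk1e by 0.17 (level-adjusted -0.06), with 0.50 and 1.64 in the other probe sets. Btrc, the F-box protein that recognizes phosphorylated PER, read 7.07 in 2RH30 and 5.27 in 2RS30 in its brightest probe set, a difference of 1.80 (level-adjusted 1.61), against -0.47 and -1.79 in the others. The phosphatase Ppp1ca read 8.21 in 2RH30 and 8.18 in 2RS30, a difference of 0.03 (level-adjusted -0.44).

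Clock output genes and the hormonal inputs of Per1 were also compared. Of 11 output genes, 1 was 2-fold or more higher (11.5% of all genes) and 2 were lower (9.62%), both of them dim, and level-adjusted these counts were 1 (8.95%) and 0 (9.31%). Alas1, the first enzyme of heme synthesis, read 10.7 in 2RH30 and 9.08 in 2RS30, a difference of 1.59 (level-adjusted 1.05). Pdk4, a kinase that restrains pyruvate oxidation, differed by 0.89 (level-adjusted 0.85) but by -2.11 in its other, dim probe set. Wee1, a cell cycle kinase, differed by -0.57 and the transferrin receptor Tfrc by -0.91 (level-adjusted -0.59 and -0.84), and their other probe sets, both dim, by -1.26 for Wee1 and 0.87 for Tfrc. In their brightest probe sets, all 6 measured genes of the glucocorticoid receptor and its targets were above 0, as were 7976 of all 14217 genes. Their median was 0.45 (level-adjusted 5 above, 1 below and 0.35). Of them 1 was 2-fold or more higher (11.5% of all genes), and level-adjusted 0 (8.95%). This was Tsc22d3 (GILZ) at 1.04 (level-adjusted 0.95). Klf9 differed by 0.99 (level-adjusted 0.50) and Sgk1 by 0.38 (level-adjusted 0.11). Other probe sets went both ways, with 0.72 and 0.85 for Klf9 and -1.08 for Fkbp5, against 0.52 in the brightest Fkbp5 probe set. Nr3c1, dim in both of its probe sets, differed by 0.37 in the brighter and by -1.09 in the other. Dusp1, a phosphatase of MAP kinases, read 7.57 in 2RH30 and 7.47 in 2RS30 in the brightest of its probe sets, a difference of 0.10 (level-adjusted -0.30), against 2.08 in the other.

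Among 8 genes of the CREB pathway, 3 were 2-fold or more higher (11.5% of all genes) and 0 lower (9.62%), and level-adjusted 2 were higher (8.95%) and 0 lower (9.31%). The list had 6 genes above 0 and 2 below, with a median of 0.94 (level-adjusted 0.48). Sik1, a kinase that switches off CREB coactivators, read 8.40 in 2RH30 and 6.84 in 2RS30, a difference of 1.55 (level-adjusted 1.14), against 0.32 in the second probe set. The coactivators differed by 1.49 for Crtc1 (level-adjusted 1.32), by 1.09 for Crtc3 (level-adjusted 0.97) and by -0.72 for Crtc2 (level-adjusted -0.85), and the other Crtc1 probe set by -0.47. Fos, an early CREB target, differed by -0.17 (level-adjusted -0.39).

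**Figure D5:**
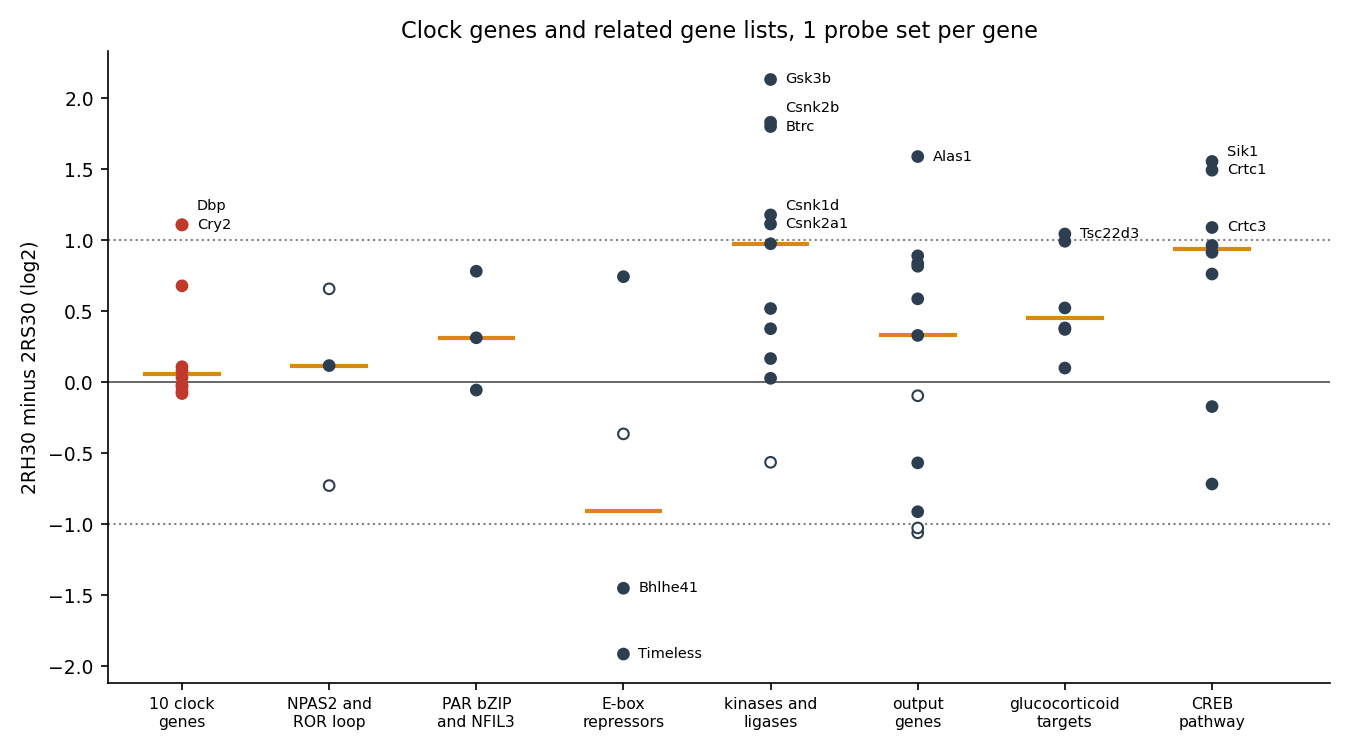
Difference of 2RH30 minus 2RS30 (log2, vertical axis) for the 10 clock genes (red) and the 7 lists of related genes (horizontal axis), 1 point per gene from its brightest probe set. Open points are dim, orange bars are list medians, dotted lines mark 2-fold, and genes past it that are not dim are named. The clock genes have a median of 0.05, with Dbp and Cry2 above 2-fold, and the kinases and ligases include Gsk3b at 2.13.

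The cell makeup of the dissected tissue was read from marker genes. Of 8 chromaffin cell markers 7 were measured, with differences of 0.23 to 0.95 and a median of 0.51 (level-adjusted 0.09). Th, the first enzyme of catecholamine synthesis, read 12.0 in 2RH30 and 11.5 in 2RS30, and Pnmt, which makes epinephrine, 11.7 in 2RH30 and 11.4 in 2RS30. Markers of the adrenal cortex were bright as well, although the label names the medulla. Star, the cholesterol carrier of steroid synthesis, read 12.5 in 2RH30 and 11.8 in 2RS30, and Cyp11b1, the enzyme of the last step to corticosterone, 11.5 in 2RH30 and 11.0 in 2RS30. The 6 of 8 cortex markers that were measured differed by 0.33 to 0.80, with a median of 0.59 (level-adjusted 0.04). Of 7 macrophage and leukocyte markers, 4 (Cd68, C1qa, C1qb and C1qc) were 2-fold or more higher in 2RH30, against 11.5% of all genes, with a range of -0.77 to 2.71 over the list and a median of 1.33 (level-adjusted 1.03). The leukocyte marker Ptprc (CD45) differed by -0.71, and by -2.13 in its other, dim probe set, and the macrophage receptor Csf1r by -0.77. In their brightest probe sets, Cd68 and C1qa were above the array median only in 2RH30, and Ptprc and Csf1r only in 2RS30. The 3 of 5 Schwann cell and 3 of 4 endothelial markers that were measured had medians of 0.09 and 0.20, and none passed 2-fold. In each of these 2 lists, 2 of the 3 measured genes were dim. The part of cortical cells or leukocytes in the clock gene values was not tested, and in such pools more cells of a type and more RNA per cell cannot be told apart.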

How the data were processed

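The values deposited by the authors are log2 levels of the probe sets of the Affymetrix Rat Genome 230 2.0 array, made with Expression Console per the submitters' processing notes. The paper calls them quantile-normalized and names GCRMA for its own analysis. As deposited, the probe set values of the 2 arrays did not share 1 distribution, with an SD of 1.57 in 2RH30 and 1.28 in 2RS30. The sources used here do not state how probes were summarized. The log2 scale was inferred from the range of the values. Of 31099 rows, 57 array controls were left out. The platform annotation named 1 gene for 20826 probe sets, and current symbols were taken from RefSeq (GRCr8) for the 20758 whose gene number it holds. Each gene is represented by its brightest probe set, the one of highest mean level over both arrays. Differences are 2RH30 minus 2RS30. They were also level-adjusted by lowess (fraction 0.3, 3 iterations), a step checked on simulated data, and described over 20 level bins. Dim probe sets lie under the median of both arrays. With 1 array per group no test was run, and precision is limited by that number. The SD of differences between probe sets of a gene was pooled over genes with at least 2 that were not dim. The threshold was 2-fold, as in the study.

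The clock genes and all gene lists were chosen with earlier results of these data known. Besides the 10 clock genes, the text names the 2 highest and 2 lowest genes of each related list and all past 2-fold, where not dim. Npas2, Rorb, Fkbp5, Nr3c1 and the markers are named outside that rule. Settings tried were median centring, quantile normalization, lowess, averaging over probe sets, and 1.5-fold and 3-fold thresholds. Probe sets that can match several transcripts, or dim genes, were also left out. Python 3.11.15, pandas 2.3.3, numpy 2.4.6, statsmodels 0.14.6 and matplotlib 3.10.9 were used.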

Additional observations from a re-analysis of the deposited data

How the results depend on the processing

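The count of clock genes 2-fold or more higher, 2 as deposited, was 0 after quantile normalization, 0 after lowess adjustment, 1 with the mean over probe sets and 0 at 3-fold. It did not change by more than 1.5 times under the other settings tried, and the count of lower clock genes was 0 under every setting. The median difference of the clock genes, 0.05, was -0.22 after quantile normalization, -0.24 after lowess and 0.48 with the mean over probe sets, so both its sign and its size depend on these choices, and the cause was not tested. Of the related genes, 10 were higher and 4 lower as deposited. At 1.5-fold 22 were higher and 7 lower, at 3-fold 4 and 1, and the lower count was 2 after quantile normalization, 2 after lowess and 2 without dim genes. Counts at other thresholds differ by construction. Btrc was -0.15 with the mean over probe sets, against 1.80, because its probe sets disagree. Over 37 named genes, 179 of 184 values under other settings stayed within 0.82 of the deposited difference, the probe set SD over all levels. Much of this was fixed in advance. Centring moved all genes by the same small amount, and genes with 1 probe set cannot move by averaging. The limit is also wide. Dbp at 0.70 after lowess and Cry2 at 0.44 with the mean over probe sets fell within it, though below 2-fold. Besides Btrc, the mean over probe sets gave 0.51 for Crtc1, 1.09 for Dusp1, -0.61 for Pdk4 and -0.02 for Tfrc. Without probe sets whose suffix marks a possible match to several transcripts, Arntl could not be read. Its only probe set, 1370510_a_at, is of that kind, though the annotation gives it to this gene alone. No paired analysis was possible because the groups hold a single array each, and no pseudocount was tried since the values are on a log scale. Signal over background is not given, so a limit for dim probe sets cannot be stated, and the spread between animals is unknown.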
